A study of Homo sapiens with 18 samples.

Results

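The mRNA levels of 10 chemokine genes were followed in hepatocellular carcinoma cells in which ATAD2 was silenced. They were CXCL1, CXCL2, CXCL3, CXCL5, CXCL6, CXCL8, CXCL10 and CXCL16 of the CXC class and CCL2 and CCL20 of the CC class. A probe set, which is a group of short oligonucleotides on the array that are read together, was included when the platform annotation gave it exactly 1 of these genes. This left 15 probe sets of 54675 in the table, and 10 genes of 19775 that were tested. CXCL2 and CXCL5 had 3 probe sets each, CXCL8 had 2, and the other 7 genes had 1 each. Unless another probe set is named, values are those of the one with the highest mean signal over all arrays, called the main probe set.

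The series asked whether ATAD2, a chromatin ATPase with a bromodomain, could serve as a target in this cancer. Hep3B, SNU449 and PLC (PLC/PRF/5), established human liver cancer lines grown in RPMI medium, were transfected by lipofection with siRNA against ATAD2 or with a non-targeting control siRNA, and each of the 6 groups had 3 arrays labelled as biological replicates. The labels call the treated samples knockouts, but the design states siRNA, so these are knockdowns, and the control arrays also carry transfection and an siRNA. The siRNA sequences and the interval from transfection to harvest were not given in the sources used here. In bulk RNA of this kind, fewer cells expressing a gene and less RNA per cell cannot be told apart.

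Chemokines are small secreted proteins that draw leukocytes along a gradient by binding G protein-coupled receptors. CXCL1, CXCL2, CXCL3, CXCL5, CXCL6 and CXCL8 carry the ELR motif and attract neutrophils through CXCR2, and CXCL6 and CXCL8 also through CXCR1. CXCL10 is an interferon-induced ligand of CXCR3 on T cells, CXCL16 a membrane-anchored ligand of CXCR6, CCL2 the monocyte attractant that binds CCR2, and CCL20 the ligand of CCR6 on T helper cells and dendritic cells. Many of these genes are switched on by NF-kB after tumour necrosis factor or interleukin 1, and hepatocytes and liver tumour cells are among their sources.

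RefSeq promoters (build GRCh38.p14, 250 bases before to 50 after the start of the gene) were at hand for 8 of the 10 genes, all but CCL2 and CXCL16. The letters GGAATTTCC, an NF-kB site read on both strands, stood in 7 of these 8 promoters, and in 162 of 35114 promoters of the table (0.461%). These letters are a fixed form of the site, and they were not shown to be chosen independently of these promoters. Some of the promoters are also close relatives, up to 83.1% identical, so their matches are not independent. The gap between the shares is therefore no test of enrichment. The stretches of 40 bases that hold the match are shown because they are what these genes have in common in sequence. The matched letters are in capitals, and each is written 5′ to 3′ on the strand of its gene.

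CXCL1, chr4:73869300-73869339, plus strand: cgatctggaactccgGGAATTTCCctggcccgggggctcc
CXCL2, chr4:74099248-74099287, minus strand: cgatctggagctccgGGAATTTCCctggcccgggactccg
CXCL3, chr4:74038743-74038782, minus strand: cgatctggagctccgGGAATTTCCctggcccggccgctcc
CXCL5, chr4:73998743-73998782, minus strand: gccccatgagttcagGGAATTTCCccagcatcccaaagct
CXCL6, chr4:73836574-73836613, plus strand: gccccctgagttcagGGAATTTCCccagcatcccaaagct
CXCL8, chr4:73740463-73740502, plus strand: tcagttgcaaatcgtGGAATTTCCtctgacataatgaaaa
CXCL10, chr4:76023649-76023688, minus strand: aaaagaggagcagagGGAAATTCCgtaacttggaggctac

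The match began 77 or 78 bases before the start in CXCL1, CXCL2 and CXCL3, 89 to 91 bases before it in CXCL5, CXCL6 and CXCL8, and 176 bases before it in CXCL10. In CXCL10 the match lay on the opposite strand. CCL20, on chromosome 2, had no match in its window. Only the letters GGAATTTCC were searched as an NF-kB site, so other forms of it were not counted in any promoter. Of the other motifs searched on both strands, TGANTCA (AP-1) was in CXCL8 alone (7.71% of all promoters), the interferon-stimulated response element in CXCL10 alone (3.57%), and TATAAA in CXCL8 and CCL20 (11.5%). None of these matches overlapped the NF-kB letters. A match describes the letters and shows no binding.

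CXCL6 and CXCL5 had the most similar promoters of the 8, identical at 251 of 302 aligned positions (83.1%). CXCL1 and CXCL3 followed with 82.5%. The 250 bases before the start of CXCL6 and CXCL5 are shown because CXCL6 rose most after knockdown in Hep3B, as described further on, and CXCL5 is its nearest relative in promoter sequence. The capitals again mark GGAATTTCC.

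CXCL6, chr4:73836428-73836677, plus strand: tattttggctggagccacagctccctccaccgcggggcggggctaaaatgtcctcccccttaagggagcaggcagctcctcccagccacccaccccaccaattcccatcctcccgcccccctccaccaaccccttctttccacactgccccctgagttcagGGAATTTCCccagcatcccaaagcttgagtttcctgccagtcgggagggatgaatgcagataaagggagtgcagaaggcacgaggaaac
CXCL5, chr4:73998678-73998927, minus strand: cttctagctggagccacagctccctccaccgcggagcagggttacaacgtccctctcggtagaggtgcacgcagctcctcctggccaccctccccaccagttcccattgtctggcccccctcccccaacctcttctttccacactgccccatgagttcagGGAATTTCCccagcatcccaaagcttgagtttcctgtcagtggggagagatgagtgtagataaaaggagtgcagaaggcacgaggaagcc

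Values are log2 signals after quantile normalization of the deposited log2 values over all 18 arrays, and log2 changes are knockdown minus control. A gene was called when its adjusted p in limma, a linear model with 1 estimate of the spread for all groups, was under 0.05 after Benjamini-Hochberg adjustment over all 19775 genes. The targeted ATAD2 was lower after knockdown in each line, 5.23-fold in SNU449, 6.14-fold in PLC and 13.9-fold in Hep3B. RB1, which Hep3B is known to lack, had a log2 signal of 9.15 to 9.51 on the 6 arrays labelled Hep3B and of 4.27 to 4.75 on the 6 labelled SNU449. ALB had a control mean of 3.03 under the Hep3B label, 13.8 under the SNU449 label and 10.6 in PLC. Both levels go against what is known of Hep3B, a line without RB1 that makes albumin. The labels are kept, so each line name below means the arrays that carry that label. Some arrays also stood apart in RNA quality, taken as the 5′ minus 3′ log2 signal of beta-actin and GAPDH. It was -1.15 and -1.09 on PLC ATAD2 siRNA replicates 1 and 3 against -0.44 to -0.59 on the other PLC arrays, and -0.42 on Hep3B ATAD2 siRNA replicate 2 against -0.65 to -0.79 on the other Hep3B arrays.

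**Figure D1:**
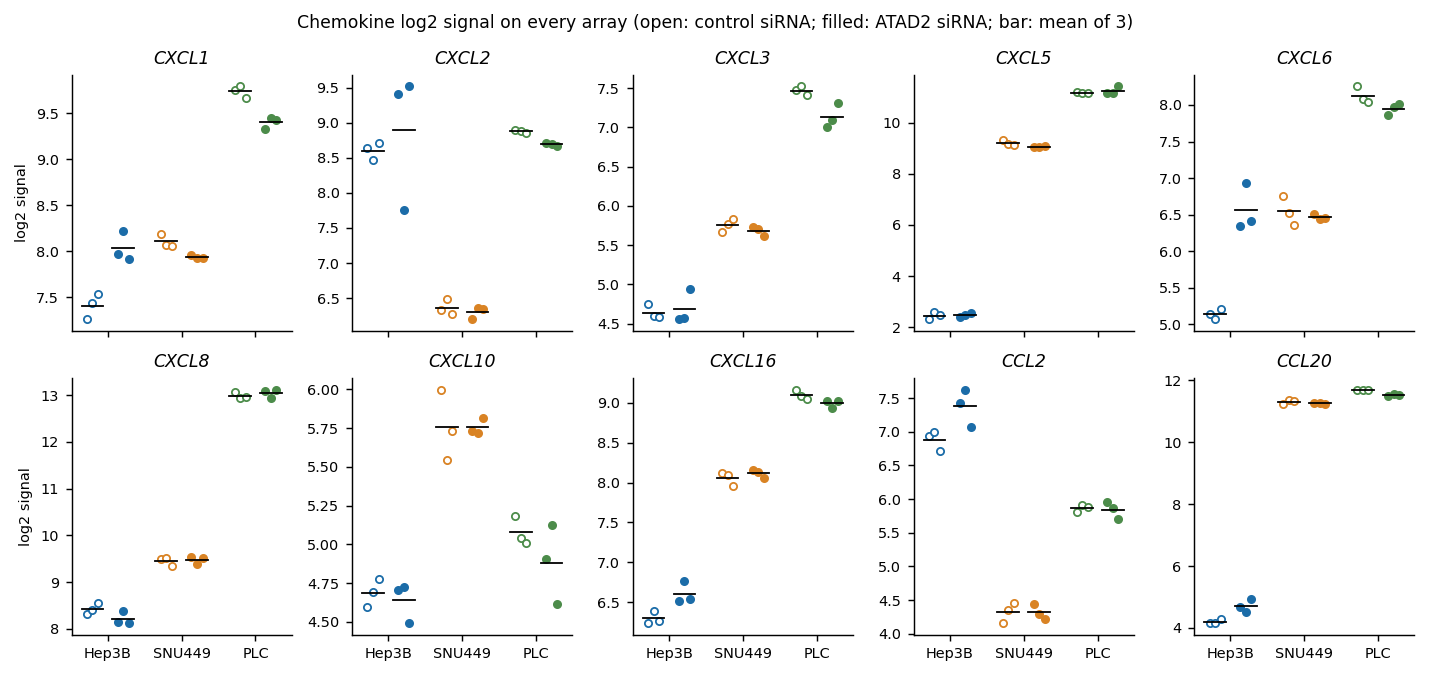
Log2 signal of the 10 chemokine genes on each of the 18 arrays, with a panel and a vertical axis of its own for each gene, cell lines on the horizontal axis, open circles for control siRNA, filled circles for ATAD2 siRNA and bars for the mean of 3 arrays. The knockdown arrays of Hep3B lie above its controls for CXCL1, CXCL6, CXCL16, CCL2 and CCL20, and CXCL5 and CCL20 are lower on every Hep3B array than on any array of the other lines.

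Before knockdown the chemokine genes differed widely between the lines. A difference between control groups was called when it passed the adjusted p of 0.05 and reached 1 log2 unit. By this rule 9 of the 10 genes differed between SNU449 and Hep3B (19.7% of all genes were called), 7 of them higher in SNU449 (9.24% of all genes) and 2 lower (10.5%). Between PLC and Hep3B 8 differed (18.4% of all genes), 7 higher in PLC (9.58%) and 1 lower (8.83%). Between SNU449 and PLC 8 differed (19.2% of all genes), all 8 lower in SNU449 (10.5% of all genes, against 8.63% called as higher).

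The ELR chemokines were mostly highest in PLC and lowest in Hep3B. The main probe set of CXCL5 read 2.30, 2.58 and 2.46 on the Hep3B control arrays, 9.33, 9.18 and 9.14 on those of SNU449 and 11.21, 11.17 and 11.15 on those of PLC. On the Hep3B control arrays that signal exceeded only 3.08% of all probe sets, near the bottom of the array, so no fold is given. The log2 difference was 6.77 for SNU449 minus Hep3B (4.27 to 7.05 over the other settings) and 8.73 for PLC minus Hep3B (6.20 to 10.31). CXCL8, the neutrophil attractant also named interleukin 8, read 8.32, 8.40 and 8.55 on the Hep3B controls, 9.49, 9.53 and 9.35 on the SNU449 controls and 13.06, 12.93 and 12.97 on the PLC controls, where it exceeded 99.77% of probe sets. Its level in PLC was 23.7-fold that in Hep3B (log2 difference 4.56 ± 0.08, SE) and 11.6-fold that in SNU449.

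CXCL1, CXCL3 and CXCL6 kept the same order of lines. CXCL1 read 7.26, 7.43 and 7.53 on the Hep3B controls, 8.19, 8.07 and 8.06 on the SNU449 controls and 9.75, 9.80 and 9.67 on the PLC controls. Its difference between SNU449 and Hep3B, 0.70 ± 0.08, had an adjusted p of 7.20e-07 in limma but did not reach 1 log2 unit. CXCL3 was 2.16-fold higher in SNU449 than in Hep3B and 7.09-fold higher in PLC than in Hep3B. CXCL6, whose control arrays read 5.07 to 5.21 in Hep3B, 6.36 to 6.76 in SNU449 and 8.05 to 8.26 in PLC, was 2.66-fold and 7.94-fold higher in SNU449 and PLC than in Hep3B.

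CXCL2 departed from that order. It read 8.64, 8.46 and 8.71 on the Hep3B controls and 8.89, 8.88 and 8.86 on the PLC controls, a difference of 0.27 ± 0.29 (limma, adjusted p = 0.419), but 6.33, 6.49 and 6.28 on the SNU449 controls, 4.72-fold below Hep3B and 5.70-fold below PLC. Averaged over its 3 probe sets the SNU449 minus PLC difference was -0.80, under the limit of 1. Its other probe sets were low and did not repeat the gap between PLC and SNU449. In Hep3B, SNU449 and PLC the control means were 4.33, 3.83 and 3.55 for 1569203_at and 3.84, 3.42 and 3.58 for 230101_at.

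Among the chemokines that act on lymphocytes and monocytes, CCL20 differed most. It read 4.16, 4.17 and 4.29 on the Hep3B controls, 11.25, 11.35 and 11.35 on the SNU449 controls and 11.69, 11.69 and 11.67 on the PLC controls. The log2 difference was 7.11 for SNU449 minus Hep3B and 7.48 for PLC minus Hep3B. On the Hep3B controls the signal exceeded only 31.01% of all probe sets, so no fold is given. The SNU449 minus PLC difference of -0.37 ± 0.08 (limma, adjusted p = 0.000467) stayed under 1 log2 unit. CXCL16 read 6.24 to 6.39 in Hep3B, 7.96 to 8.12 in SNU449 and 9.04 to 9.16 in PLC, so that the 3 lines were in the order of the ELR chemokines.

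CCL2 ran the other way and was highest in Hep3B. Its control arrays read 6.93, 7.001 and 6.72 in Hep3B, 5.81, 5.91 and 5.88 in PLC and 4.16, 4.36 and 4.46 in SNU449. Hep3B was 2.03-fold above PLC. The log2 difference was -2.56 for SNU449 minus Hep3B. On the SNU449 controls the signal exceeded only 33.79% of all probe sets, so no fold is given. The PLC minus Hep3B call of CCL2 was lost in 4 of 29 settings, among them without Hep3B control replicate 2 (-0.96). CXCL10 differed little. Its control arrays read 4.596 to 4.78 in Hep3B, 5.54 to 5.997 in SNU449 and 5.01 to 5.18 in PLC, and only the SNU449 minus Hep3B difference of 1.07 ± 0.12 was called. This call was lost in 3 of 29 settings, among them without SNU449 control replicate 1 (0.95).

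Levels between lines depend on how the arrays are scaled, more so than changes within a line. The deposited values put the median of all genes 0.75 log2 units higher in SNU449 minus PLC and 0.60 lower in PLC minus Hep3B than the values used here, and centring arrays on their medians moved the same medians by -0.71 and 0.65. No called chemokine difference changed its sign under either scaling. The uncalled CXCL10 difference of PLC minus Hep3B did, from 0.39 to -0.87 on the deposited values. On the deposited values SNU449 minus PLC gave 1 higher (CXCL10 at 2.02) and 6 lower chemokine genes, without CXCL16 at -0.94 and CCL2 at -0.32, and 85.8% of all called genes were then higher, against 45% here. With centred arrays PLC minus Hep3B gave 8 higher (with CXCL2 at 1.57) and 0 lower (without CCL2 at -0.54, adjusted p = 0.000288 in limma), and SNU449 minus PLC gave 9 lower (with CCL20 at -2.01). Of all called genes 89.7% were then higher in PLC minus Hep3B, against 52% here, and 8.31% in SNU449 minus PLC. SNU449 minus Hep3B gave 5 higher and 2 lower with centred arrays, without CXCL8 at 0.90 and CXCL10 at 0.95. There 41.7% of all called genes were higher, against 46.9% here. On the deposited values PLC minus Hep3B kept 7 higher and 1 lower, while 17.3% of all called genes were higher.

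In Hep3B, 5 of the 10 chemokine genes rose after ATAD2 knockdown and 0 fell. Over all genes 16.4% were called in this comparison, 8.68% as higher and 7.74% as lower. CXCL6 rose most, followed by CXCL1, CCL20, CCL2 and CXCL16. For these 5 genes all knockdown arrays lay above all control arrays, as they did for 15.5% of all genes. The median change of the 10 genes was 0.30, against -0.02 for all genes. Under the other scalings the same number of chemokine genes was called, while the share of all called genes that were higher went from 52.9% to 64.2% on the deposited values and 75.1% with centred arrays.

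CXCL6, an ELR chemokine of epithelial cells, had Hep3B control signals of 5.14, 5.07 and 5.21, and 6.35, 6.93 and 6.41 after knockdown. The lowest knockdown array was thus more than 1 log2 unit above the highest control, and the change was 1.42 ± 0.13 (log2, SE), or 2.68-fold (limma, adjusted p = 7.03e-07). It brought CXCL6 of Hep3B to a mean of 6.56, next to the SNU449 control mean of 6.55. CXCL1, a close relative made by many cells on inflammatory stimuli, read 7.26, 7.43 and 7.53 on the controls and 7.97, 8.22 and 7.91 after knockdown. Its change was 0.63 ± 0.08, or 1.54-fold (limma, adjusted p = 4.25e-05).

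The other 3 genes that rose bind receptors of T cells and monocytes. CCL20 read 4.16, 4.17 and 4.29 on the controls and 4.67, 4.501 and 4.93 after knockdown, a change of 0.49 ± 0.08 (limma, adjusted p = 0.000302), which left it far under its level in the other lines. The signal was low throughout, above 31.01% of all probe sets on the controls and 42.27% after knockdown. CCL2 read 6.93, 7.001 and 6.72 and then 7.43, 7.62 and 7.08, a change of 0.49 ± 0.12 (limma, adjusted p = 0.00895). CXCL16 read 6.24, 6.39 and 6.26 and then 6.52, 6.76 and 6.54, a change of 0.31 ± 0.07 or 1.24-fold (limma, adjusted p = 0.00562).

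CXCL6, CXCL1, CCL20 and CXCL16 were called under every one of 30 other settings of the analysis. CCL2 was not called without Hep3B control replicate 3 (0.41, adjusted p = 0.0549 in limma) or without knockdown replicate 2 (0.37, adjusted p = 0.0512). Knockdown replicate 2, which stood apart in its 5′ minus 3′ difference, was the highest knockdown array for CXCL6, CXCL1, CCL2 and CXCL16. For CCL20 it was the lowest. With that difference as a covariate all 5 genes were still called.

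CXCL2 showed the widest spread of the set in Hep3B, with knockdown arrays on both sides of the controls. Its main probe set read 8.64, 8.46 and 8.71 on the controls and 9.41, 7.76 and 9.52 on knockdown replicates 1, 2 and 3. The change was 0.29 ± 0.29, with a 95% interval from -0.33 to 0.92 (limma, adjusted p = 0.607). Knockdown replicate 2 is the array with the 5′ minus 3′ difference of -0.42, and the part of that difference in the value was not tested. Without that array the change of CXCL2 was 0.86 (adjusted p = 3.05e-06). The probe set 1569203_at of CXCL2, read at 4.27, 4.35 and 4.38 and then at 4.66, 4.1997 and 4.86, had the same low array, while 230101_at stayed between 3.71 and 4.01 on all 6 arrays.

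The remaining 4 genes did not pass the test in Hep3B. CXCL8 read 8.32, 8.40 and 8.55 on the controls and 8.15, 8.37 and 8.12 after knockdown, a change of -0.21 ± 0.08 (limma, adjusted p = 0.0997) opposite in sign to that of its neighbour CXCL6. It was called as lower in 3 of 30 settings, without the dimmest 50% of genes (adjusted p = 0.0404), with an intensity trend and robust prior (0.0408) and without knockdown replicate 2 (-0.29, adjusted p = 0.0249). CXCL3 changed by 0.04 ± 0.10, CXCL5 by 0.02 ± 0.08 and CXCL10 by -0.05 ± 0.12. For CXCL5 all 3 probe sets lay between 2.18 and 3.03 on the Hep3B arrays, which leaves little room to see a fall.

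**Figure D2:**
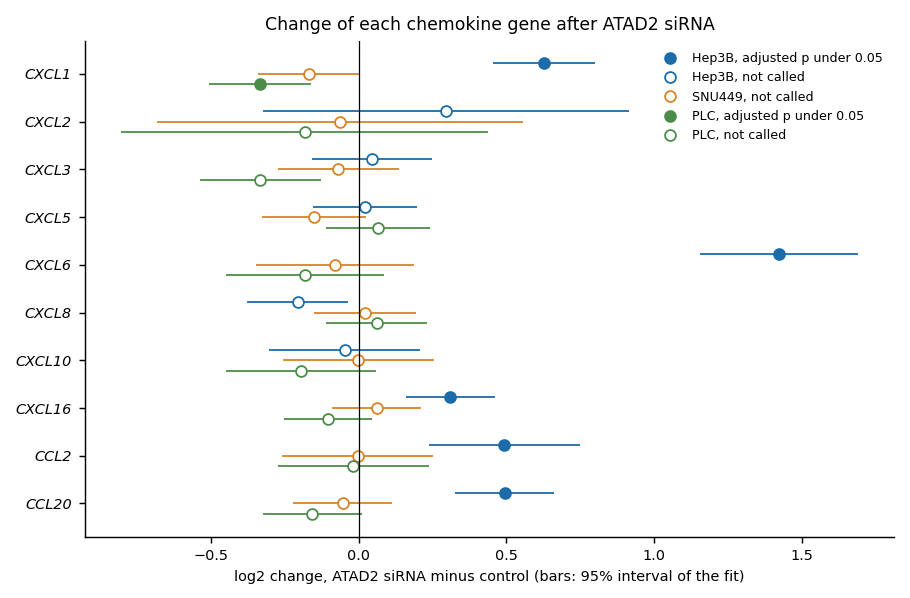
Log2 change of each chemokine gene after ATAD2 siRNA (horizontal axis) in Hep3B, SNU449 and PLC, as a point with its 95% interval in the linear model, filled where the adjusted p was under 0.05. In Hep3B 5 genes lie above 0 with filled points, CXCL6 farthest at 1.42, and the filled point below 0 is CXCL1 in PLC at -0.34.

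In SNU449 no chemokine gene was called, and 0.258% of all genes were. None of the 10 had an unadjusted p under 0.05 in limma either. CXCL1 read 8.19, 8.07 and 8.06 on the controls and 7.96, 7.92 and 7.92 after knockdown, a change of -0.17 ± 0.08 (limma, adjusted p = 0.498). CXCL5 read 9.33, 9.18 and 9.14 and then 9.05, 9.06 and 9.10, a change of -0.15 ± 0.08 (adjusted p = 0.578). In these 2 genes the knockdown arrays all lay below the controls, as in 13.2% of all genes. CXCL6 read 6.76, 6.53 and 6.36 and then 6.51, 6.44 and 6.45, and its 95% interval of -0.35 to 0.19 excludes a rise of the size seen in Hep3B. The 95% interval was -0.22 to 0.11 for CCL20 and -0.26 to 0.25 for CCL2.

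In PLC, CXCL1 was the only chemokine gene called, and it was lower. It read 9.75, 9.80 and 9.67 on the controls and 9.33, 9.45 and 9.43 after knockdown, a change of -0.34 ± 0.08 or 1.26-fold (limma, adjusted p = 0.0314). Over all genes 4.57% were called, 2.24% as lower and 2.34% as higher. The call rests on the shared estimate of the spread and on single arrays. It was lost with the PLC arrays fitted alone (adjusted p = 0.253), with the 5′ and 3′ difference as a covariate (-0.26, adjusted p = 0.219), and without control replicate 1 (0.0795), control replicate 2 (0.0977), knockdown replicate 1 (0.103) or knockdown replicate 3 (0.0565).

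CXCL3 moved in parallel in PLC without passing the test. It read 7.47, 7.52 and 7.41 on the controls and 7.01, 7.09 and 7.30 after knockdown, a change of -0.33 ± 0.10 (limma, adjusted p = 0.0587), and it passed in 7 of 30 settings, among them the deposited values (-0.45, adjusted p = 0.0200). CXCL2 read 8.89, 8.88 and 8.86 and then 8.72, 8.70 and 8.66, and CCL20 read 11.69, 11.69 and 11.67 and then 11.50, 11.56 and 11.53. Their changes of -0.18 ± 0.29 and -0.16 ± 0.08 were not called (adjusted p = 0.775 and 0.268). The standard error of CXCL2 is wide because the model shares 1 spread per gene over all groups, and its Hep3B knockdown arrays differ among themselves.

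All knockdown arrays of PLC lay below all controls for 6 of the 10 genes, CXCL1, CXCL2, CXCL3, CXCL6, CXCL16 and CCL20, against 9.11% of all genes. The changes of CXCL6 and CXCL16 were -0.18 ± 0.13 and -0.10 ± 0.07, neither called. CXCL10 changed by -0.20 ± 0.12 and CCL2 by -0.02 ± 0.12, with overlapping arrays. The median change of the 10 genes was -0.17 in PLC and -0.06 in SNU449, against 0.01 and -0.02 for all genes.

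The probe sets of CXCL8 and CXCL5 gave different answers in PLC. In the fit over all 41097 probe sets with 1 gene, in which 3.73% were called in PLC, CXCL8 probe set 202859_x_at read 13.06, 12.93 and 12.97 on the controls and 13.08, 12.95 and 13.12 after knockdown, a change of 0.06 ± 0.08 (limma, adjusted p = 0.742). Probe set 211506_s_at of the same gene read 11.97, 12.09 and 12.08 and then 11.30, 11.93 and 11.23, a change of -0.56 ± 0.15 that was called (adjusted p = 0.0494). This call was lost with 9 of 12 single Hep3B or PLC arrays left out, each Hep3B control and each PLC control among them (adjusted p up to 0.156). The fall in this probe set lay on knockdown replicates 1 and 3, the arrays with the low 5′ signal.

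CXCL5 showed the same split. Probe set 214974_x_at read 11.21, 11.17 and 11.15 and then 11.15, 11.15 and 11.43. Probe set 215101_s_at read 9.46, 9.61 and 9.95 and then 8.98, 9.82 and 8.86 (change -0.45 ± 0.18, adjusted p = 0.172 in limma), and 207852_at read 5.11, 5.39 and 5.61 and then 4.88, 5.41 and 4.93 (-0.30 ± 0.13, adjusted p = 0.192). In these 2 probe sets knockdown replicates 1 and 3 were again the low ones, and replicate 2 lay among the controls.

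With the 5′ minus 3′ difference as a covariate, 211506_s_at of CXCL8 changed by -0.19 (adjusted p = 0.469 in limma) and 215101_s_at of CXCL5 by -0.01 (adjusted p = 0.989). Without knockdown replicate 2 the changes were -0.78 (adjusted p = 0.000444) and -0.75 (adjusted p = 0.000836). Over all 15 probe sets, 2 were called in PLC (1 of CXCL1 and 1 of CXCL8, both lower), 5 in Hep3B, where 11.8% of all probe sets were called, and 0 in SNU449, where 0.0876% were. The 5 called in Hep3B are the probe sets of the 5 genes named for that line, each the gene's only probe set.

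**Figure D3:**
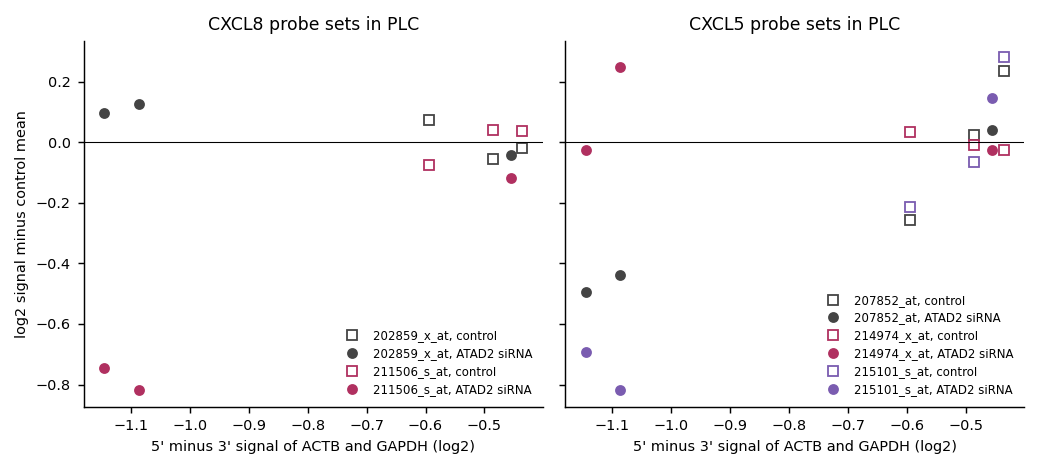
Log2 signal minus the control mean of each CXCL8 and CXCL5 probe set (vertical axis) on the 6 PLC arrays, against the 5′ minus 3′ log2 signal of ACTB and GAPDH on the same array (horizontal axis), with squares for control siRNA and circles for ATAD2 siRNA. The arrays at -1.15 and -1.09 are low for 211506_s_at, 215101_s_at and 207852_at and not for 202859_x_at or 214974_x_at.

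The response to knockdown differed between the lines for 4 of the 10 genes in the F test over the 3 lines, CXCL6, CXCL1, CCL20 and CXCL16. Over all genes 9.18% differed. The change of CXCL6 was 1.504 ± 0.18 log2 units greater in Hep3B than in SNU449 and 1.61 ± 0.18 greater than in PLC (F test adjusted p = 3.22e-05 in limma). For CXCL1, higher in Hep3B and lower in PLC, the differences were 0.80 ± 0.11 and 0.96 ± 0.11 (F test adjusted p = 0.000105). For CCL20 they were 0.55 ± 0.11 and 0.65 ± 0.11 (F test adjusted p = 0.00263).

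CXCL16 differed between Hep3B and PLC by 0.41 ± 0.10 (limma, adjusted p = 0.0157), where 9.7% of all genes were called, but not between Hep3B and SNU449 (0.25 ± 0.10, adjusted p = 0.195), where 6.14% were. Its F test (adjusted p = 0.0361) was lost in 11 of 29 settings. For CCL2, called in Hep3B alone, the F test did not pass (adjusted p = 0.0890), so a difference between lines was not shown for it. None of the 10 genes differed between SNU449 and PLC, where 0.202% of all genes did. Without Hep3B knockdown replicate 2 CXCL2 also differed between lines (F test adjusted p = 3.77e-05).

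Of the set, 6 ELR genes lie together on chromosome 4, in the order CXCL8, CXCL6, CXCL1, CXCL5, CXCL3 and CXCL2, with the platelet chemokine genes PF4V1, PF4 and PPBP among them. All 9 genes were measured. In Hep3B the called rise covered only part of the cluster. CXCL6 and CXCL1 were called as higher, CXCL8 on one side of CXCL6 had a change below 0, and PF4V1, which lies between CXCL6 and CXCL1, changed by 0.06 ± 0.14 from a control mean of 2.21. PF4 (-0.09 ± 0.06) and PPBP (-0.13 ± 0.20) were not called in Hep3B, nor in the other lines. The Hep3B control means of CXCL5 (2.45), PF4V1 and PPBP (3.11) were low, so a missing call says little for these genes. CXCL3, also not called, had a Hep3B control mean of 4.64. CXCL2 was not called either, but changed by 0.86 without Hep3B knockdown replicate 2.

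Of the genes that flank the cluster, MTHFD2L, a mitochondrial folate enzyme gene next to CXCL2, rose in Hep3B (0.50 ± 0.06, adjusted p = 2.25e-05 in limma) and in PLC (0.25 ± 0.06, adjusted p = 0.0306). AFM, which encodes the plasma protein afamin, fell in PLC (-0.62 ± 0.13, adjusted p = 0.0140 in limma), and RASSF6 was not called. The AFM signal in PLC was low, with a mean of 3.68 on the controls and 3.06 after knockdown. These flanking genes were named for their position.

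**Figure D4:**
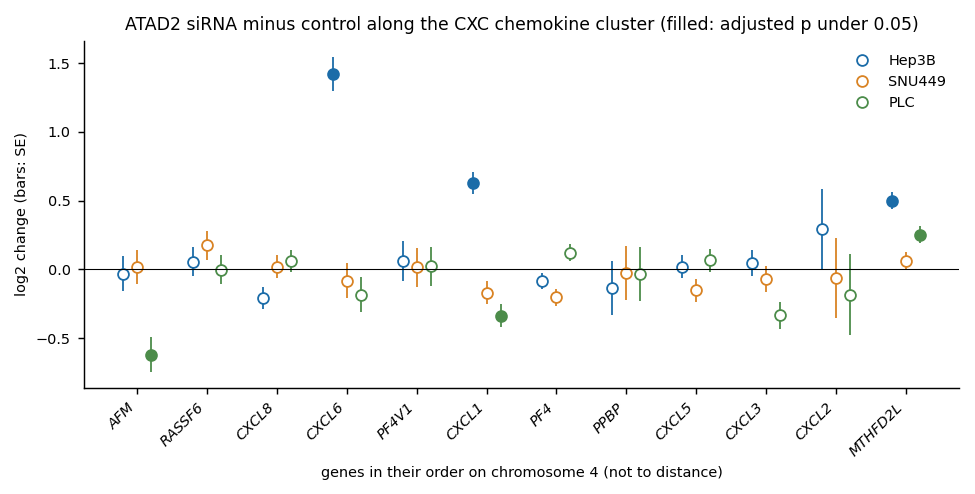
Log2 change after ATAD2 siRNA (vertical axis, bars for SE) of the genes of the chromosome 4 chemokine cluster and the genes that flank it, in gene order along the horizontal axis, for Hep3B, SNU449 and PLC, filled where the adjusted p was under 0.05. In Hep3B CXCL6 at 1.42 and CXCL1 at 0.63 stand above neighbours that were not called, and MTHFD2L at the far end is at 0.50.

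The promoter letters stood on both sides of the call. CXCL6 and CXCL1, which rose in Hep3B, hold GGAATTTCC, as do CXCL2, CXCL3, CXCL5, CXCL8 and CXCL10, which were not called there. CCL20, which rose, does not hold these letters in its window, and other forms of an NF-kB site were not searched. CXCL5, with the promoter most like that of CXCL6, had a Hep3B signal near the bottom of the array, so its response there cannot be set beside that of CXCL6. CXCL3, the gene with the promoter most like that of CXCL1, changed by 0.04 in Hep3B, where CXCL1 changed by 0.63. The 2 genes also differed in level, which limits this comparison. On the Hep3B controls CXCL3 had a mean of 4.64, above 40.99% of all probe sets, and CXCL1 one of 7.41, above 79.78%.

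Of 28 other chemokine genes measured and of 20 chemokine receptor genes measured, 0 were called in any line, where 16.4% (Hep3B), 0.258% (SNU449) and 4.57% (PLC) of all genes were. Over the 30 settings tried for these lists, at most 1 other chemokine gene was called as higher in Hep3B or PLC and at most 2 as lower in PLC. Among receptors at most 1 rose and 1 fell in Hep3B, and at most 1 rose and 3 fell in PLC. The summed signal of the receptor genes was 9.17 to 9.21 on the Hep3B control arrays and 9.09 to 9.21 after knockdown (log2 of the summed linear signal). That of the other chemokine genes was 9.41 to 9.50 and then 9.38 to 9.46. These sums are small for so many genes, so a missing call says little for the dim genes among them.

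Lists of genes around the chemokines are given by their counts, beside the shares of all genes called, which were 16.4% in Hep3B (8.68% higher, 7.74% lower), 0.258% in SNU449 and 4.57% in PLC. Whether a list differs from those shares was not tested. Of 20 genes for cytokines and receptors upstream of these chemokines, 7 rose and 2 fell in Hep3B, with a median change of 0.11 against -0.02 for all genes. IL6R, the ligand-binding chain of the interleukin 6 receptor, rose by 1.19 ± 0.07 (limma, adjusted p = 5.76e-09), IL1RAP, the accessory chain of the interleukin 1 receptor, by 1.05 ± 0.08 (adjusted p = 1.87e-07), and the tumour necrosis factor receptor gene TNFRSF1A by 0.59 ± 0.08. The gene of the double-stranded RNA sensor TLR3 fell by 0.91 ± 0.15. Over the other settings 4 to 9 of these genes rose and 1 to 3 fell.

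In SNU449, IL1RAP (0.46 ± 0.08, adjusted p = 0.0227 in limma) and IL6ST, the signalling chain shared by interleukin 6 receptors (0.34 ± 0.06, adjusted p = 0.0334), rose, and the IL1RAP call was lost in 9 of 29 settings. IL6ST was named after its values were seen. In PLC 0 of these 20 genes were called, 0 to 1 in either direction over the other settings.

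Of 18 NF-kB subunit and feedback genes, 3 were called in Hep3B, a share near the 16.4% of all genes. Of these 2 rose, the adhesion molecule gene ICAM1 by 0.58 ± 0.07 (limma, adjusted p = 9.89e-06) and the inhibitor gene NFKBIB by 0.24 ± 0.07 (adjusted p = 0.0185, lost in 5 of 29 settings). TNFAIP2, which tumour necrosis factor induces, fell by 0.56 ± 0.09. No gene of this list was called in SNU449 or PLC.

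Of 11 genes of the AP-1 and CEBP list, 5 fell (7.74% of all genes were called as lower), 2 rose and 4 were not called in Hep3B. Over the other settings 3 to 5 fell. The changes were -1.83 ± 0.55 in FOS, -1.32 ± 0.19 in ATF3, -1.05 ± 0.16 in JUNB and -0.72 ± 0.20 in FOSB. The calls of FOS (adjusted p = 0.0291 in limma) and FOSB (0.0174) were lost in 4 and 3 of 28 settings. JUN also fell (-0.52 ± 0.06), and CEBPD (0.68 ± 0.08) and CEBPB (0.30 ± 0.05), factors of the acute phase response, rose. In PLC, CEBPA fell by 0.40 ± 0.08 (adjusted p = 0.0176). JUN and the CEBP genes were named after their values were seen.

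In the interferon axis that induces CXCL10, 2 of 18 genes rose and 1 fell in Hep3B, again near the share of all genes called (16.4%). CXCL10 itself read 4.596, 4.69 and 4.78 on the controls and 4.71, 4.72 and 4.49 after knockdown. The kinase gene JAK2 rose by 0.54 ± 0.10 (limma, adjusted p = 0.00138) and ISG15 by 0.22 ± 0.07 (adjusted p = 0.0449, lost in 17 of 29 settings), and IFIT1 fell by 0.65 ± 0.08. In PLC the interferon gamma receptor gene IFNGR1 fell by 0.24 ± 0.06 (adjusted p = 0.0387, lost in 17 of 29 settings), where CXCL10 read 5.18, 5.04 and 5.01 and then 4.91, 5.12 and 4.61.

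Of 10 protease genes that shed or trim chemokines, ADAM17 rose in Hep3B by 0.35 ± 0.06 (limma, adjusted p = 0.000443), beside the rise of the membrane-anchored CXCL16, and the other 9 were not called. Of 10 genes that control the decay of AU-rich mRNAs, the class to which many chemokine transcripts belong, DUSP1 fell by 1.19 ± 0.19 in Hep3B (adjusted p = 0.000245). In PLC the decay factor gene KHSRP rose by 0.35 ± 0.09 (adjusted p = 0.0361, lost in 9 of 29 settings) and ZFP36L2 fell by 0.29 ± 0.06 (adjusted p = 0.0208, lost in 7).

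**Figure D5:**
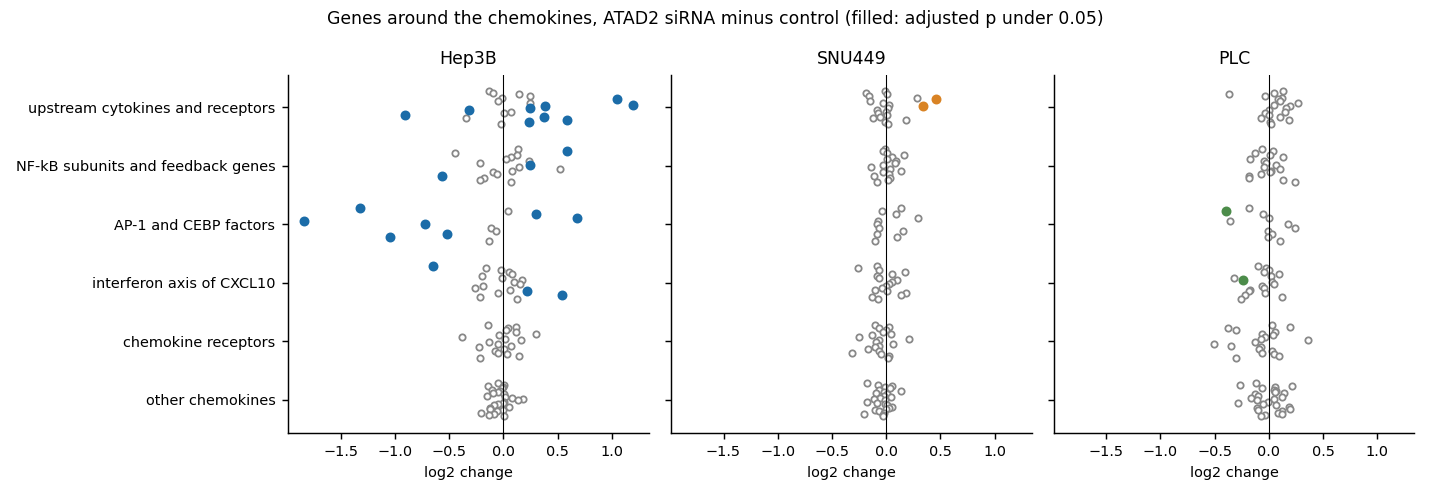
Log2 change after ATAD2 siRNA (horizontal axis) of each gene in 6 lists of genes around the chemokines (rows), in Hep3B, SNU449 and PLC, filled where the adjusted p was under 0.05. In Hep3B, where 16.4% of all genes were called, 9 of 20 upstream cytokines and receptors are filled (4 to 9 higher and 1 to 3 lower over the other settings), 7 of 11 AP-1 and CEBP factors (2 higher and 3 to 5 lower), and 0 chemokine receptors or other chemokines.

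A few markers of other cell types were called beside these changes. Of all genes 16.4% were called in Hep3B (8.68% higher, 7.74% lower). Whether a marker list differs from that share was not tested. In Hep3B, 1 of 7 leukocyte markers, the monocyte gene CD14, rose by 0.49 ± 0.14 (limma, adjusted p = 0.0260, lost in 5 of 27 settings), with a summed leukocyte signal of 7.56 to 7.61 on the controls and 7.56 to 7.69 after knockdown. PTPRC, the pan-leukocyte marker, had a control mean of 3.66 in Hep3B, 3.27 in SNU449 and 2.77 in PLC. LYZ made up most of the leukocyte sum in SNU449 and PLC, with control means of 12.1 and 11.1. Of 8 mesenchymal markers SPARC rose in Hep3B by 0.83 ± 0.06, and of 5 endothelial markers PECAM1 fell by 0.25 ± 0.08 (adjusted p = 0.0278, lost in 8 of 29 settings). The summed mesenchymal signal of Hep3B was 14.36 to 14.41 on the controls and 14.32 to 14.51 after knockdown, and the endothelial one 7.84 to 7.90 and then 7.65 to 7.71.

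In PLC, where CXCL1 fell, 4 of 9 hepatocyte markers fell as well (2.24% of all genes were called as lower), and 2 to 6 over the other settings. Among them were ALB (-1.02 ± 0.14), APOA1 (-0.71 ± 0.08) and SERPINA1 (-0.49 ± 0.10). The SERPINA1 call was lost in 3 of 29 settings, among them the 5′ and 3′ covariate. The summed hepatocyte signal went from 14.1 on each PLC control array to between 13.7 and 13.8 after knockdown, against 11.5 to 11.7 and then 11.9 to 11.99 in Hep3B, where FGB rose by 0.39 ± 0.06. In SNU449 no marker of these lists was called. The part of these markers in the chemokine changes was not tested.

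Likeness of pattern was measured as the root mean square difference between the 6 group means of a gene and those of a chemokine, each centred on its own mean, among 7393 genes whose group means span at least 1 log2 unit. Within the set CXCL1 and CXCL6 were the most alike (0.29 log2 units), followed by CXCL3 and CXCL16 (0.30) and CXCL1 and CXCL3 (0.40). Outside it the nearest to CXCL1 were ECE2 (0.09), TENT5A and SLC41A2, and to CXCL6 TANC2 (0.23), RP2 and TENT5A. For CXCL8 they were FST (0.14), CPEB1 and TMEM133, for CXCL3 DCAF10 (0.12), TSC22D3 and DACT2, for CXCL2 CTSL (0.08), SAMTOR and UPRT, and for CXCL5 FABP5 (0.43), AGTR1 and RNF128.

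For CCL20 they were ARMCX3 (0.23), AGTR1 and LIN7A, for CCL2 CD99L2 (0.07), DISP2 and RAVER2, for CXCL16 PNPT1 (0.06), KRT18 and PDSS2, and for CXCL10 KCND2 (0.024), NDRG2 and PABPN1P1. These distances rest on 6 means from 3 lines, and they are set mainly by the differences between lines. CXCL5 and CCL20, the genes with the widest range, were the ones with AGTR1 among their nearest.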

How the data were processed

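The authors deposited 1 table of log2 values for 54675 probe sets on 18 arrays of total RNA. The scale was judged from the range of 1.33 to 14.0. The submitters' processing notes name limma, with its version, background correction and normalization not given in the sources used here. After sorting, columns of the same line were at most 0.16 apart and columns of different lines up to 1.51, so the columns were quantile normalized over all arrays. The platform annotation gave 1 gene to 41097 probe sets, several to 1801 and none to 11777, and 41043 of the first kind were renamed through RefSeq gene identifiers (GRCh38.p14). The probe set with the highest mean stood for its gene.

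The model, 1 mean per group, was fitted in R 4.3.3 by lmFit and eBayes of limma 3.58.1, which gave 4.01 prior beside 12 residual degrees of freedom. Two-sided p-values were Benjamini-Hochberg adjusted over all genes, and a call needed a value under 0.05 and, between control groups, a minimum of 1 log2 unit. An exact permutation test of 3 arrays against 3 cannot give a p under 0.1 and was not used. Alternatives changed the scaling, the filter on dim genes, the probe set rule, the arrays in the fit, the prior, the threshold, a replicate block and a 5′ and 3′ covariate, and left out each array. The procedure was tested on simulated data.

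The genes named are the 10 chemokines, ATAD2, for each list up to 4 called genes, those that changed most, and the 3 nearest genes in pattern. The chemokines and the lists were chosen with earlier results of these data known. RB1 served as a check of the labels. No 2 arrays held identical values, and arrays of a group correlated with r of 0.994 to 0.998 across probe sets. The number of arrays limits the precision.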

Additional observations from a re-analysis of the deposited data

Results flagged for a closer look

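The change after ATAD2 siRNA differed between the cell lines for 4 chemokine genes, by the F test over the 3 lines in limma with adjustment over all genes. The same test called 9.18% of all genes. The adjusted p was 3.22e-05 for CXCL6, 0.000105 for CXCL1, 0.00263 for CCL20 and 0.0361 for CXCL16. CXCL6 changed by 1.42 in Hep3B, -0.08 in SNU449 and -0.18 in PLC, CXCL1 by 0.63, -0.17 and -0.34, CCL20 by 0.49, -0.06 and -0.16, and CXCL16 by 0.31, 0.06 and -0.10 (log2, 3 arrays against 3 in each line). In Hep3B every knockdown array was higher than every control array for these 4 genes, as for 15.5% of all genes. In PLC every knockdown array was lower, as for 9.11% of all genes, but only CXCL1 of the 4 was called there. The F test of CXCL16 was lost in 11 of 29 settings.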

How the results depend on the processing

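Of 30 settings planned, 18 left out 1 array each. In Hep3B 5 chemokine genes were called and 4 to 6 over all settings, in SNU449 0 in each, and between control groups 6 to 9 (SNU449 and Hep3B), 6 to 8 (PLC and Hep3B) and 6 to 9 (SNU449 and PLC). The F test called 4 and then 3 to 6. In PLC the count of 1 became 2 on the deposited values, with quantile normalization within each line, with arrays centred on their medians, without the dimmest 30% of genes and with an intensity trend and robust prior, when CXCL3 joined CXCL1. It became 0 with only the PLC arrays, with the replicate block, with the 5' and 3' covariate and at a threshold of 0.01, and also, in a setting chosen after seeing the data, without PLC ATAD2 siRNA replicates 1 and 3 (CXCL1 at -0.28, adjusted p = 0.246 in limma). With single arrays left out the PLC count ranged from 0 to 2. It was 0 without PLC control replicate 1 or 2 or ATAD2 siRNA replicate 1, and 2 without Hep3B ATAD2 siRNA replicate 3. Without PLC ATAD2 siRNA replicate 3 it was 1, with CXCL3 (-0.42, adjusted p = 0.0315 in limma) in place of CXCL1.

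No called change turned its sign. The replicate block, with replicate number within each line, moved CXCL1 in PLC to an adjusted p of 0.0609 and changed no other count of calls. Deviations of same-numbered arrays correlated between -0.12 and 0.09, and 4 of 9 knockdown arrays correlated best with their own number. With 3 arrays a group this check cannot tell whether same-numbered arrays were handled together. The F test has no value on the arrays of 1 line, and CXCL3, CXCL10 and CCL2 have none once the dimmest genes they belong to are left out. With 3 arrays a group, single arrays decide the calls of CCL2 in Hep3B and CXCL1 in PLC and the missing call of CXCL2 in Hep3B.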
